A study of Homo sapiens with 77 samples.

Results

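The genes described here are 49 genes of DNA replication that are known as targets or members of the E2F programme. They were chosen by gene name and role, and all 49 were listed in both RNA-seq count tables of the study: 49 of 35813 genes in the table of the MI-503 experiment and 49 of 21455 genes in the table of the drug combination. By role they comprised 11 licensing genes (MCM2, MCM3, MCM4, MCM5, MCM6, MCM7, ORC1, ORC6, CDC6, CDT1 and GMNN), 27 genes of the replication fork, 5 genes of nucleotide supply (RRM1, RRM2, TYMS, TK1 and DUT) and 6 regulators (E2F1, E2F2, E2F8, CCNE1, CCNE2 and DTL). The fork genes were split into 8 that form or steer the helicase (MCM10, CDC45, GINS1, GINS2, GINS3, GINS4, WDHD1 and CLSPN) and 19 that make or protect DNA (POLA1, POLA2, PRIM1, PRIM2, POLD1, POLD2, POLD3, POLE, POLE2, PCNA, RFC2, RFC3, RFC4, RFC5, FEN1, LIG1, RPA1, RPA2 and RPA3).

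The study asked how loss of menin-MLL1 activity acts on diffuse large B-cell lymphoma, and how it combines with inhibition of EZH2, the histone H3K27 methyltransferase of PRC2. In the first experiment KARPAS422 and DB cells, both EZH2 mutant, and SUDHL5 and Farage cells, both EZH2 wild type, received MI-503, a small molecule that blocks the binding of menin to MLL1, at 800 nM for 72 h, or its vehicle DMSO. In the second, KARPAS422 cells for 48 h and EZH2-mutant SuDHL10 cells for 24 h received the EZH2 inhibitor EPZ-6438 (tazemetostat) at 1 µM together with the menin inhibitor VTP50469 at 330 nM, EPZ-6438 alone, VTP50469 alone, or neither drug (control). Each condition had 2 libraries, 32 in all. Doses, times and EZH2 status are those of the study's text and figures, and the sample labels do not give them. All lines are established cultures, and the labels do not state separate cultures for the paired libraries of a condition, so p-values measure the spread between these libraries, which may be technical.

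Before S phase, ORC, CDC6 and CDT1 load the MCM2-7 ring onto origins, a step called licensing that geminin (GMNN) restrains. CDC45 and the GINS complex then turn the ring into the active helicase, and DNA polymerases alpha, delta and epsilon, the clamp PCNA, its loader RFC and the single-strand binding protein RPA copy the DNA. RB holds E2F factors on the promoters of these genes until cyclin-dependent kinases release them at the start of S phase, so that the whole group is known to rise and fall with proliferation.

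Library totals ran between 13034958 and 54883332 counts in the MI-503 experiment and between 8956156 and 31573027 counts in the drug combination. The levels given below are read counts scaled to library size by TMM (CPM), which depend on gene length and are compared between samples only, and a gene is called at an adjusted p under 0.1 from edgeR's quasi-likelihood test. Summed over 8 B cell markers, libraries held between 3439.05 and 6180.33 CPM in the first experiment and between 4546.7 and 9598.98 CPM in the second, with none of the 8 at 0 throughout. CD74 reached the highest level among them, up to 2305 and 4031 CPM. Over 6 T cell markers, sums ran between 1.71 and 186 CPM and between 6.23 and 297 CPM, highest in KARPAS422. CD3G reached the highest level of these, up to 135 and 254 CPM. In the MI-503 experiment each member had at least 157 counts in every library. In the drug combination, FEN1 had between 2 and 18 counts and RRM2 between 17 and 125, so that neither can be read closely there. For KARPAS422 without drug, RRM2 stood at a mean of 265.61 CPM in the MI-503 table and 1.94 CPM in the combination table, FEN1 at 151.8 and 0.569 CPM, and MCM4 at 57.5 and 633 CPM, whereas the median ratio of the first table over the second was 0.7123 across the 49 genes. The tables were normalised separately and the reason for these gaps was not tested, so no other level is compared between them.

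Promoter sequences show what the group shares in sequence. RefSeq promoters of GRCh38.p14, from 250 bases before to 50 bases after a start, were matched for 41 of the 49 genes. The first listed window of each gene was used. Of these, 21 (51.2%) held at least 1 of the E2F-type words TTTCCCGC, TTTGGCGC, TTTCGCGC and TTTGCCGC on either strand, against 3.33% of the promoters of all 27305 genes searched. TTTCCCGC was present in 24.4% of the members' promoters and 1.66% of all promoters, TTTGGCGC in 22% and 0.659%, and TTTCGCGC in 12.2% and 0.546%. The plainer word CCAAT was present in 53.7% and 35.7%. An E2F-type word was found in 6 of 9 licensing, 11 of 23 fork, 1 of 5 nucleotide supply and 3 of 4 regulator promoters. Promoters of MCM4, MCM5, GINS4, POLD3, RPA2, RPA3, E2F8 and CCNE2 were not analysed here. A match is a description of letters and not of a bound site.

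The promoters of a regulator, a helicase, a polymerase and a nucleotide supply gene are shown as examples of their roles. MCM5, the example for licensing, was not among the matched promoters. Shown are E2F1 at chr20:33686356-33686635 (minus strand), CDC45 at chr22:19479670-19479949 (plus strand), POLE2 at chr14:49688185-49688464 (minus strand) and RRM2 at chr2:10122489-10122768 (plus strand). Each runs 5' to 3' on the gene's own strand, over 280 bases that end 30 bases after the start, and the E2F-type words and CCAAT or its reverse complement ATTGG stand in capitals.
E2F1: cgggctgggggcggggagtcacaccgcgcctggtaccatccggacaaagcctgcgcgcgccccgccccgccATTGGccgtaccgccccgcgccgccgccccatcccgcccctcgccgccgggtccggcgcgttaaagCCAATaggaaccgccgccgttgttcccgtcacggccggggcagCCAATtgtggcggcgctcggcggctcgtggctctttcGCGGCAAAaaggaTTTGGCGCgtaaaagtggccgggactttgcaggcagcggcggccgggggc
CDC45: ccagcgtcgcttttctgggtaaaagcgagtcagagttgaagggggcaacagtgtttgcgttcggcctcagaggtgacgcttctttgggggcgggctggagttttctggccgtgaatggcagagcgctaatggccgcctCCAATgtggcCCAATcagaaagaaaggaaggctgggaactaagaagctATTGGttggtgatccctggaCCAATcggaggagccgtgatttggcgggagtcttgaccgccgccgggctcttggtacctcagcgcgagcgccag
POLE2: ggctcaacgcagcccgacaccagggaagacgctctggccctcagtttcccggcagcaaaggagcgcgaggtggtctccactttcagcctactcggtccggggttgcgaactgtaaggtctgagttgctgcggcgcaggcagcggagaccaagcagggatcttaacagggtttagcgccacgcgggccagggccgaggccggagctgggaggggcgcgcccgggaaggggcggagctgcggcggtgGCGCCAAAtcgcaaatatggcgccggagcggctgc
RRM2: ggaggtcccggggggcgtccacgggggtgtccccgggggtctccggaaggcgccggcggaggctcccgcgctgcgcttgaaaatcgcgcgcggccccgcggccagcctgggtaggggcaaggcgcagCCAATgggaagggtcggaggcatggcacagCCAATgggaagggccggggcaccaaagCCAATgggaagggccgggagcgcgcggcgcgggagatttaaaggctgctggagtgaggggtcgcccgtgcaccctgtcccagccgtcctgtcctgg
In E2F1, which encodes the best known activating E2F factor, TTTGGCGC began 20 bases and GCGGCAAA, the reverse complement of TTTGCCGC, 33 bases before the start. In POLE2, a subunit of polymerase epsilon, GCGCCAAA, the reverse complement of TTTGGCGC, began 5 bases before it. The promoter of CDC45 held 4 CCAAT words and that of RRM2, the small subunit of ribonucleotide reductase, held 3. Neither held any of the E2F-type words searched, and other forms of the word were not searched.

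The first question was how the genes stood in untreated cells of the 4 lines of the MI-503 experiment. All 49 differed among the DMSO libraries of the lines (edgeR, 3 degree of freedom F test, largest adjusted p = 1.16e-05), as did 97.1% of all genes tested. SUDHL5 was the highest line for 33 members, KARPAS422 for 8, Farage for 5 and DB for 3. DB was the lowest line for 25 members, Farage for 16, KARPAS422 for 6 and SUDHL5 for 2. Summed over the 11 licensing genes, the DMSO libraries held 1429.16 and 1474.36 CPM in DB, 1745.05 and 1785.88 CPM in Farage, 2178.84 and 2167.4 CPM in KARPAS422, and 3277.55 and 3216.02 CPM in SUDHL5, with no overlap between neighbours. The 5 nucleotide supply genes kept DB lowest, at 674.003 and 676.206 CPM, and SUDHL5 highest, at 1347.37 and 1353.17 CPM, while Farage (967.76 and 984.282 CPM) and KARPAS422 (993.365 and 979.002 CPM) overlapped. For the 6 regulators the lowest line was Farage, with 258.835 and 265.389 CPM, below KARPAS422 (379.574 and 372.328 CPM) and DB (391.956 and 395.175 CPM).

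**Figure D1:**
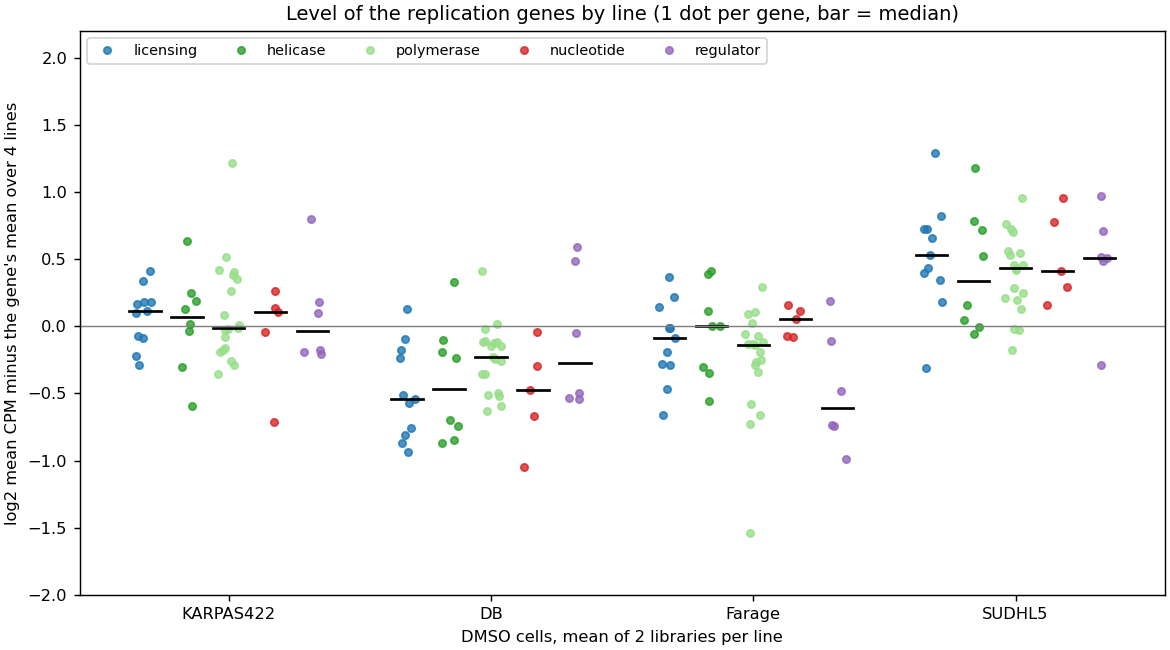
Level of each of the 49 genes in the DMSO cells of 4 lines (1 dot per gene and line), as log2 of the mean CPM of 2 libraries minus the gene's own mean over the lines, coloured by role, with a bar at the median of each role. SUDHL5 dots lie mostly above 0 (highest for 33 genes) and DB dots mostly below (lowest for 25).

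In pairwise tests DB was lower than SUDHL5 for 43 members and higher for 3 (41.6% of all genes tested were lower and 39.8% higher), with a median log2 difference of -0.93 and MCM6, GINS2 and RRM2 lowest (-2.27, -1.92 and -1.87). Farage was lower than SUDHL5 for 41 and higher for 5 (39.7% and 38.6% of all genes), with a median of -0.56. KARPAS422 was lower than SUDHL5 for 33 and higher for 10 (40.6% and 41.2%), with a median of -0.36, and relative to DB it was lower for 10 and higher for 36 (39.2% and 42%), with a median of 0.39. The members therefore leaned one way between lines whose genes as a whole were evenly split. DB against Farage gave 30 lower and 12 higher (41.5% and 40.6%), with a median of -0.37, or 27 lower and 18 higher when libraries were scaled by their totals alone. KARPAS422 against Farage gave 16 lower and 25 higher (38.6% and 41.8%), with a median of 0.06, or 8 lower and 33 higher with library totals alone. Scaling by totals moved the median of all genes by up to 0.185096 in these comparisons of lines. The move was toward higher, by 0.185 for KARPAS422 minus Farage and 0.127 for DB minus Farage. The counts with library totals alone are therefore not read as a result about the members.

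The sharpest single difference belonged to RFC3, a subunit of the clamp loader. Its DMSO libraries held 382 and 364 CPM in KARPAS422, 307 and 315 CPM in SUDHL5, 103 and 104 CPM in DB, and 54.5 and 55.4 CPM in Farage, so that the lines did not overlap. KARPAS422 exceeded Farage by 2.70 ± 0.044 on the log2 scale (SE, edgeR adjusted p = 4.26e-16). E2F1 was ordered otherwise, at 190 and 189 CPM in DB and 226 and 216 CPM in SUDHL5, above 115 and 119 CPM in KARPAS422 and 67.2 and 68.7 CPM in Farage. DB exceeded Farage in E2F1 by 1.38 ± 0.042 (edgeR adjusted p = 5.77e-13), although its summed licensing and nucleotide supply genes were lower than those of Farage. RRM2 had 119 and 118 CPM in DB, against 264 and 286 CPM in Farage, 269 and 262 CPM in KARPAS422 and 416 and 430 CPM in SUDHL5. GINS2, a subunit of the helicase, had 44.7 and 45.2 CPM in KARPAS422 and 40.3 and 43.4 CPM in DB, against 72.4 and 74.9 CPM in Farage and 155 and 152 CPM in SUDHL5. CCNE1, the cyclin E1 partner of CDK2, was higher in DB (38 and 42.2 CPM) than in SUDHL5 (22.9 and 20.8 CPM), by 0.82 ± 0.09 (edgeR adjusted p = 9.66e-07), together with GINS1 and POLD2 against the majority.

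With MI-503, nearly the whole group fell in KARPAS422, DB and SUDHL5, and far fewer members changed in Farage. In KARPAS422, 46 of 49 were lower and 0 higher (26.3% of all genes tested were lower), with a median log2 fold change of -0.49 against 0.01 for all genes. In DB, 47 were lower and 0 higher (34.7% of all genes were lower), with a median of -1.08 against 0.02. In SUDHL5, 46 were lower and 1 higher (28.7% and 26.3% of all genes), with a median of -0.74 against 0.00. In Farage, 20 were lower and 3 higher (14.7% and 12.3% of all genes), with a median of -0.08 against 0.01. A set of 42 members was lower in KARPAS422, DB and SUDHL5 alike, as were 12.9% of the genes tested in all 3. Lower in all 4 lines were 18 members, and 5.25% of the genes tested in each: MCM2, MCM5, MCM6, MCM7, CDC6, GMNN, MCM10, GINS4, POLA1, POLD1, PCNA, RFC2, FEN1, RRM2, TK1, E2F2, E2F8 and CCNE2.

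**Figure D2:**
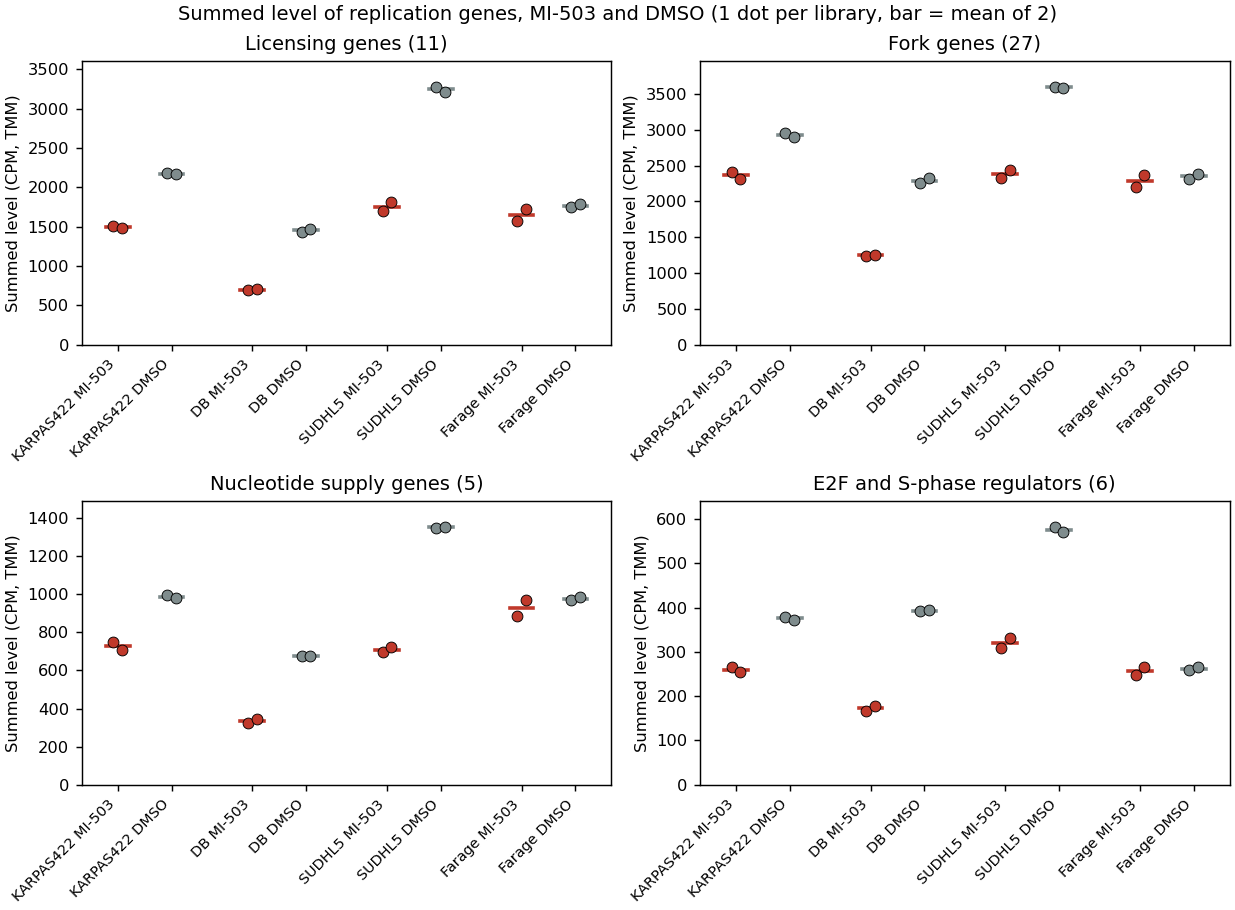
Summed level in CPM of the licensing (11), fork (27), nucleotide supply (5) and regulator (6) genes in each library of the MI-503 experiment, MI-503 in red and DMSO in grey, with a bar at the mean of 2 libraries. In KARPAS422, DB and SUDHL5 both MI-503 libraries lie below both DMSO libraries in every panel, and in Farage the groups overlap for all roles but licensing.

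Taken as one sum over the 49 genes, the MI-503 libraries held 76.42% and 73.46% of the DMSO mean in KARPAS422, 50.27% and 51.69% in DB, 57.39% and 60.52% in SUDHL5, and 91.64% and 99.66% in Farage. By role, licensing genes kept 69.48% and 67.99% in KARPAS422, 47.71% and 48.77% in DB, and 52.32% and 55.78% in SUDHL5. Fork genes kept 82.4% and 78.92% in KARPAS422, 54% and 54.75% in DB, and 64.8% and 67.87% in SUDHL5. As sums, fork genes thus retained more of their DMSO level than licensing genes in every MI-503 library of these 3 lines. The licensing sum rests mostly on MCM2, MCM3, MCM5, MCM6 and MCM7, at means of 276 to 640 CPM in KARPAS422 with DMSO. The other licensing genes had means of 53.5 to 85.1 CPM there. In DB, ORC1, ORC6 and CDT1 kept means of 30.7, 56.3 and 100 CPM with MI-503, against 32.1, 69.4 and 99.8 CPM with DMSO. CDC6 and GMNN fell there, to 18.7 and 19.0 CPM from 45.3 and 40.3 CPM. Nucleotide supply genes kept 76.14% and 71.46% in KARPAS422, 47.82% and 51.31% in DB, and 51.43% and 53.67% in SUDHL5, and the regulators 70.62% and 67.7%, 42.21% and 45.33%, and 53.68% and 57.36% in the same lines. In bulk RNA, fewer cells in S phase and less RNA of these genes per cell cannot be told apart.

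The difference between licensing and fork lay within the fork group. Median log2 fold changes of the licensing genes were -0.56 in KARPAS422, -1.12 in DB and -0.84 in SUDHL5. The 8 helicase genes had medians of -0.56, -1.15 and -0.85 in the same lines, and the 19 polymerase genes -0.29, -0.69 and -0.55. Nucleotide supply genes stood at -0.37, -1.29 and -0.85, and regulators at -0.56, -1.14 and -0.79. Helicase medians were therefore close to those of licensing and the polymerase medians nearer to 0, as a description of these lists without a test. In Farage the medians ran from -0.13 for licensing and regulators to -0.04 for the polymerase genes. Called as lower were 10 of 11 licensing, 25 of 27 fork, 5 of 5 nucleotide supply and 6 of 6 regulator genes in KARPAS422, and 9, 27, 5 and 6 in DB. The counts were 10, 25, 5 and 6 in SUDHL5, and 7, 8, 2 and 3 in Farage.

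Among the licensing genes, MCM5, a subunit of the helicase ring, had 172 and 171 CPM with MI-503 and 279 and 281 CPM with DMSO in KARPAS422. In DB it had 65.2 and 64.5 CPM with MI-503 and 136 and 135 CPM with DMSO, and in SUDHL5 151 and 161 CPM with MI-503 and 357 and 358 CPM with DMSO. The drug and vehicle libraries did not overlap in any of these lines, and log2 fold changes were -0.71 ± 0.03, -1.06 ± 0.034 and -1.18 ± 0.041 in KARPAS422, DB and SUDHL5 (SE, edgeR adjusted p at most 4e-07). In Farage MCM5 had 241 and 264 CPM with MI-503 and 266 and 281 CPM with DMSO, a change of -0.15 ± 0.043 (edgeR adjusted p = 0.0365). CDC6, which loads the ring, had 17.6 and 19.9 CPM with MI-503 in DB, against 45.6 and 45 CPM with DMSO, and it fell in every line, by 0.61 in KARPAS422, 1.27 in DB, 1.19 in SUDHL5 and 0.29 in Farage on the log2 scale. MCM2 fell by 0.68, 1.16, 1.05 and 0.11 in the same order of lines.

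Of the 7 members that were not lower in all of KARPAS422, DB and SUDHL5, 3 were licensing genes and 4 polymerase genes. ORC6, an origin recognition subunit, had 75.3 and 70.2 CPM with MI-503 and 73.9 and 74.3 CPM with DMSO in KARPAS422, and was lower in DB alone (-0.30 ± 0.042, edgeR adjusted p = 5.58e-05). CDT1, the loading partner of CDC6, had 99.5 and 101 CPM with MI-503 and 104 and 95.2 CPM with DMSO in DB, where its change was 0.01 ± 0.043 (edgeR adjusted p = 0.854). It was lower in KARPAS422 (-0.32 ± 0.039) and SUDHL5 (-0.38 ± 0.056). ORC1, the ATPase subunit of the origin recognition complex, had 31.1 and 30.3 CPM with MI-503 and 30.8 and 33.4 CPM with DMSO in DB, the line with the largest fall of the group, while it fell by 0.59 in KARPAS422, 0.38 in SUDHL5 and 0.31 in Farage.

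Of the helicase genes, CDC45 had 77.5 and 71.7 CPM with MI-503 and 117 and 119 CPM with DMSO in KARPAS422, and 13.6 and 16.5 CPM with MI-503 and 39.6 and 43.6 CPM with DMSO in DB. Log2 fold changes were -0.66 ± 0.039 and -1.47 ± 0.09 (edgeR adjusted p = 4.14e-07 and 3.39e-08). In Farage its libraries overlapped, at 51.3 and 52.3 CPM with MI-503 and 49.1 and 54.4 CPM with DMSO. MCM10, which helps CDC45 join the helicase, was among the 3 members that fell most in DB, with 18 and 18 CPM with MI-503 and 54.6 and 57.9 CPM with DMSO (-1.64 ± 0.059). CLSPN, the checkpoint adaptor claspin that travels with the fork, fell by 0.53 in KARPAS422, 1.27 in DB and 0.91 in SUDHL5.

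Among the polymerase genes, PCNA had the largest fall of the group in DB, with 81.4 and 87.8 CPM with MI-503 and 294 and 318 CPM with DMSO, a log2 fold change of -1.85 ± 0.044 (edgeR adjusted p = 2.48e-11). In KARPAS422 it had 259 and 245 CPM with MI-503 and 374 and 347 CPM with DMSO (-0.51 ± 0.038). POLA1, the catalytic subunit of polymerase alpha that starts each new strand, led the fall in SUDHL5, with 34.7 and 40.4 CPM with MI-503 and 107 and 108 CPM with DMSO (-1.48 ± 0.057), and in Farage, with 54 and 59.2 CPM with MI-503 and 70.2 and 73.9 CPM with DMSO (-0.38 ± 0.053, edgeR adjusted p = 0.00102). It was thus a member whose groups stood apart in all lines. RFC2, another clamp loader subunit, fell by 1.34 in SUDHL5, whereas RFC3, the member with the widest range between lines, fell by 0.84 in DB, 0.57 in SUDHL5 and 0.07 in KARPAS422 (edgeR adjusted p = 0.0762). FEN1, the flap nuclease of lagging strand synthesis, fell in all 4 lines, from 0.31 in Farage to 1.52 in DB.

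Several polymerase genes went against the majority in at least 1 line, or did not pass the test there. RPA1, the large subunit of RPA, had 296 and 309 CPM with MI-503 and 280 and 271 CPM with DMSO in SUDHL5, and rose by 0.15 ± 0.037 (edgeR adjusted p = 0.00947), while it was lower in KARPAS422 (-0.15 ± 0.035) and DB (-0.33 ± 0.033). PRIM1, the catalytic primase subunit, had 21.6 and 23.9 CPM with MI-503 and 19.7 and 19.1 CPM with DMSO in Farage (0.20 ± 0.077, edgeR adjusted p = 0.0951). RFC5 had 64.8 and 66.7 CPM with MI-503 and 56 and 57.1 CPM with DMSO there (0.18 ± 0.051, edgeR adjusted p = 0.0324). POLE2 had 37.2 and 34.7 CPM with MI-503 and 34.7 and 33.5 CPM with DMSO in KARPAS422 (0.08 ± 0.052, edgeR adjusted p = 0.234), but 10.1 and 9.98 CPM with MI-503 and 23.4 and 23.6 CPM with DMSO in DB (-1.22 ± 0.076). POLE, the catalytic subunit of the same polymerase, was lower in KARPAS422 and DB and changed by 0.06 ± 0.04 in SUDHL5 (edgeR adjusted p = 0.285). PRIM2 changed by -0.01 ± 0.056 in KARPAS422 (edgeR adjusted p = 0.899).

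All 5 nucleotide supply genes fell in KARPAS422, DB and SUDHL5. RRM2 had 160 and 154 CPM with MI-503 and 269 and 262 CPM with DMSO in KARPAS422, 39.8 and 42 CPM with MI-503 and 119 and 118 CPM with DMSO in DB, and 188 and 192 CPM with MI-503 and 416 and 430 CPM with DMSO in SUDHL5. Its log2 fold changes were -0.76 ± 0.031, -1.53 ± 0.041 and -1.14 ± 0.047 (edgeR adjusted p at most 5.36e-07), and groups did not overlap. TK1, the thymidine salvage kinase, fell by 0.69 in KARPAS422, 1.29 in DB, 1.25 in SUDHL5 and 0.32 in Farage. TYMS, which makes thymidylate, fell by 0.36, 1.36 and 0.85 in KARPAS422, DB and SUDHL5, and DUT, which removes dUTP, by 0.20, 1.14 and 0.84. RRM1, the large subunit that pairs with RRM2, moved less than RRM2 in each of these lines, by -0.37, -0.50 and -0.55.

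Of the regulators, E2F1 had 79.8 and 78 CPM with MI-503 and 115 and 119 CPM with DMSO in KARPAS422, 81.2 and 90 CPM with MI-503 and 190 and 189 CPM with DMSO in DB, and 127 and 135 CPM with MI-503 and 226 and 216 CPM with DMSO in SUDHL5. It fell by 0.57, 1.14 and 0.74 in these lines. In Farage it had 76.6 and 82.1 CPM with MI-503 and 67.2 and 68.7 CPM with DMSO, a rise of 0.19 ± 0.049 (edgeR adjusted p = 0.0222) with no overlap. E2F2, its close relative, fell in all 4 lines, with 16.1 and 17.1 CPM with MI-503 and 60.5 and 58.4 CPM with DMSO in DB (-1.84 ± 0.061). E2F8, a repressing E2F factor, had its largest fall in DB (-0.90 ± 0.064) and fell in Farage by 0.35. CCNE2, the second cyclin E, had 36.5 and 32.6 CPM with MI-503 and 63.4 and 56.2 CPM with DMSO in KARPAS422, where its fall of 0.78 ± 0.065 was the largest of the group. In SUDHL5 it had 16.9 and 17.8 CPM with MI-503 and 47.3 and 49.4 CPM with DMSO (-1.46 ± 0.078), also without overlap. DTL, the adaptor that marks CDT1 for destruction, fell by 0.62, 1.13 and 0.85 in KARPAS422, DB and SUDHL5.

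The Farage calls rested on small changes. The median log2 fold change was -0.08, and 11 members were lower with DESeq2. Fewer were called lower when either DMSO library was left out, in fits that leave 1 library in a group. The share of all genes called in these fits is not given, so a loss particular to the members cannot be read from them. MI-503 replicate 1 of Farage held 70.455 CPM over 9 epithelial markers and 26.4284 CPM over 5 erythroid markers, against 18.4148 and 0.553059 CPM in MI-503 replicate 2, and 13.6867 and 15.0492 CPM epithelial and 0.356423 and 0.654312 CPM erythroid in the DMSO libraries. A fit without that library leaves 1 library in the group, so its counts are not read. In DB the MI-503 libraries were deeper than the DMSO libraries, at 52236459 and 46170498 against 14695930 and 15474692 counts, and 47 members were still lower when all 4 were thinned to the smallest depth.

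Whether the response itself differed between lines was tested with interaction terms over the 16 libraries. All 49 members differed among the 4 lines (edgeR F test, largest adjusted p = 0.0104), as did 57.2% of all genes. KARPAS422 fell further than Farage for 37 members and POLE2 went the other way (0.31 ± 0.11, edgeR adjusted p = 0.0627), with a median difference of -0.38 (12% of all genes were lower and 7.51% higher). The largest of these differences were those of PRIM1 (-0.82 ± 0.097), E2F1 (-0.80 ± 0.08) and GINS2 (-0.69 ± 0.072). DB fell further than Farage for 47 (24.1% of all genes were lower), with a median difference of -0.99, led by PCNA (-1.78 ± 0.079), E2F2 (-1.69 ± 0.091) and MCM10 (-1.55 ± 0.079). SUDHL5, also EZH2 wild type, fell further than KARPAS422 for 39 members, which gave positive differences of KARPAS422 minus SUDHL5 (17.6% of all genes were higher), and POLE and RPA1 were called in the other direction (13% of all genes were lower), with a median of 0.38 and POLA1 farthest from 0 (0.74 ± 0.091). DB against SUDHL5 gave 30 members called lower and 6 called higher (19.4% and 17.2% of all genes), with a median of -0.28, and 19 called lower without DB DMSO replicate 2. PCNA had the lowest difference (-0.86 ± 0.079), followed by POLE2 and E2F2. The members called higher were ORC1, CDT1, GINS4, PRIM1, RFC2 and RFC5. By median the response was largest in DB, then SUDHL5, KARPAS422 and Farage, so EZH2-mutant and wild-type lines alternated in that order.

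Genes around the group gave a background for this. Of 33 other replication genes, 29 were lower and 2 higher with MI-503 in KARPAS422, 30 and 1 in DB, 27 and 4 in SUDHL5, and 10 and 5 in Farage. UHRF1, which recruits the maintenance DNA methyltransferase at forks, had the largest fall in KARPAS422 (-0.75 ± 0.036) and DB (-1.82 ± 0.053), while POLD4, the smallest subunit of polymerase delta, rose by 0.50 ± 0.029 in KARPAS422 and 0.95 ± 0.11 in DB. Of 22 other nucleotide genes, 11 were lower and 3 higher in KARPAS422, 19 and 3 in DB, 19 and 0 in SUDHL5, and 6 and 4 in Farage. Of 40 mitotic genes, 17 were lower and 13 higher in KARPAS422 (median -0.01), 37 and 1 in DB (-0.39), 12 and 17 in SUDHL5 (0.06) and 1 and 12 in Farage (0.09). Their summed CPM with MI-503 was 99.49% and 97.56% of the DMSO mean in KARPAS422, 75.21% and 75.24% in DB, and 98.58% and 105.2% in SUDHL5. In a list of 28 RB and E2F pathway genes, 15 were lower and 7 higher in KARPAS422. There CDKN1A, the CDK inhibitor p21, fell by 1.18 ± 0.099, whereas in SUDHL5 it rose by 0.58 ± 0.048.

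**Figure D3:**
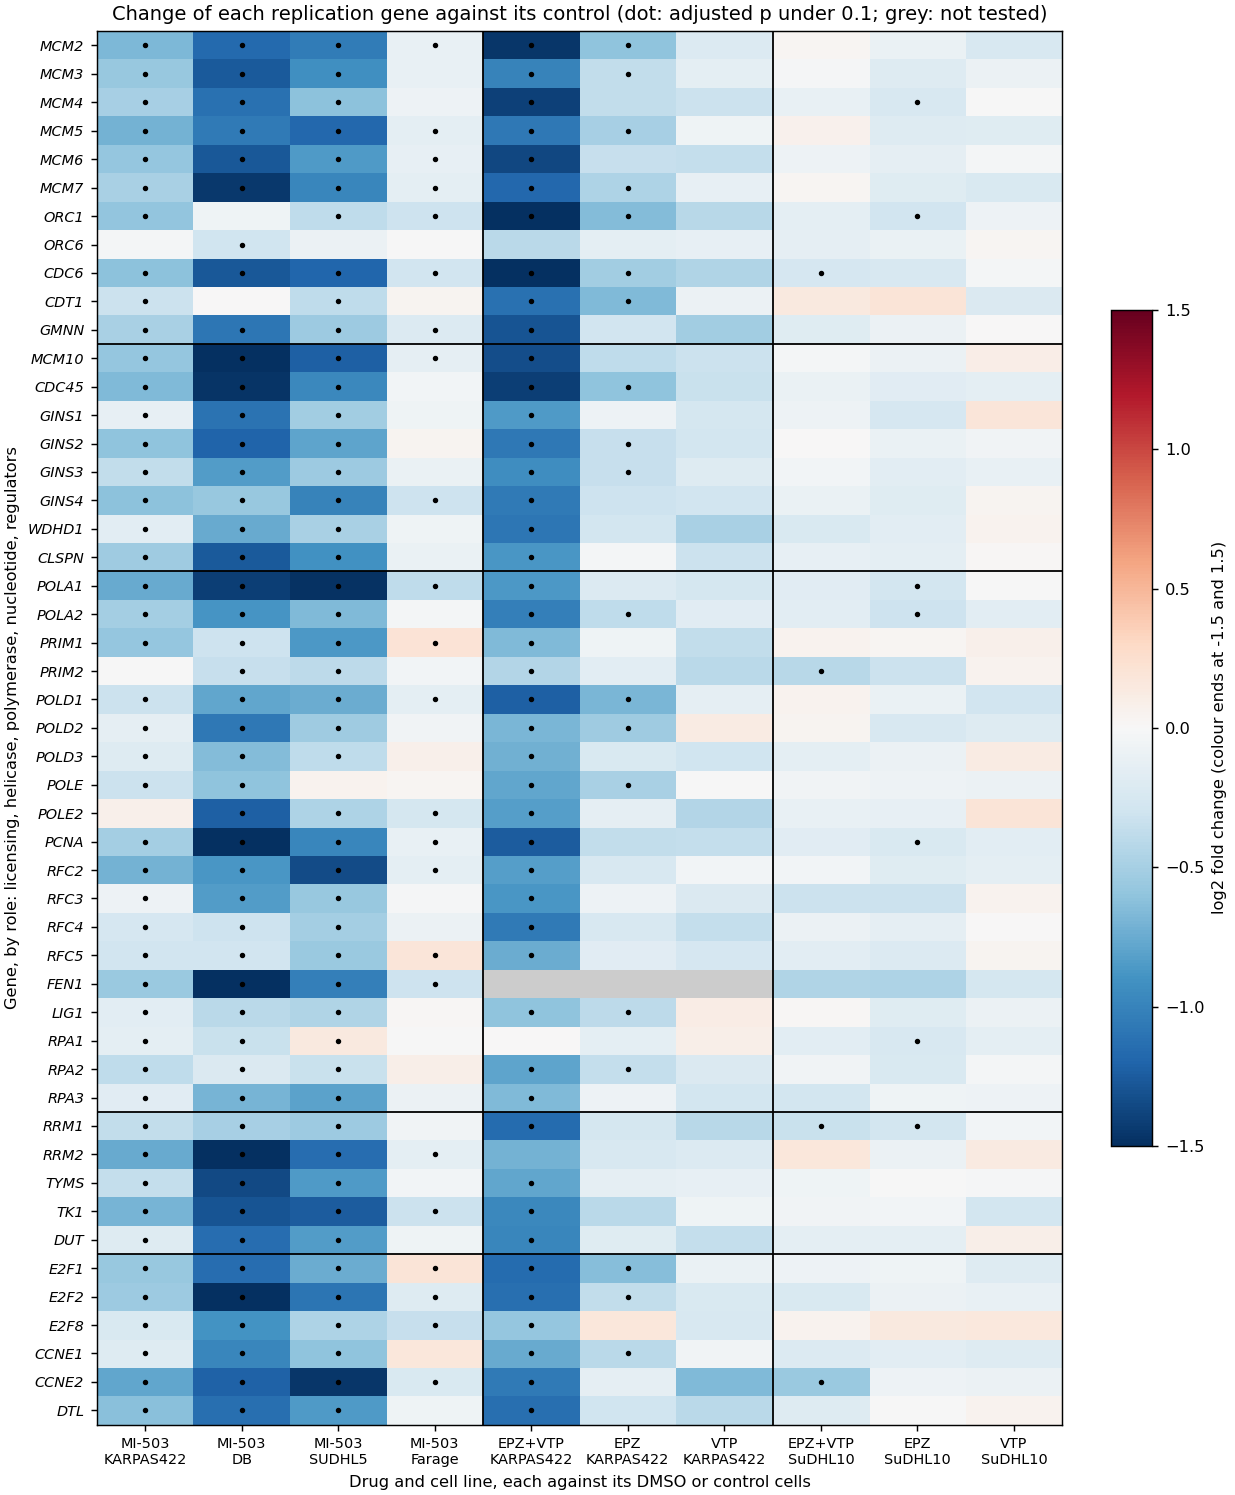
Log2 fold change of each of the 49 genes (1 line per gene, ordered by role) in each drug comparison of both experiments, each against its own DMSO or control cells, blue for lower and red for higher, with a dot at an adjusted p under 0.1. Blue fills the columns of MI-503 in KARPAS422, DB and SUDHL5 and of both drugs in KARPAS422, and the Farage and SuDHL10 columns stay pale.

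In the drug combination, KARPAS422 cells with both drugs had the largest fall. With EPZ-6438 and VTP50469 together, 45 of the 48 members tested were lower than in control cells and 0 were higher (25.2% of all genes tested were lower), with a median log2 fold change of -0.99 against 0.10 for all genes. FEN1 was too low to be tested. Scaling by library totals alone moved the median of all genes by 0.233877 and gave 44 lower. EPZ-6438 alone gave 19 lower and 0 higher (10% of all genes were lower), with a median of -0.33 against -0.02. VTP50469 alone gave 0 called by edgeR (0.197% of all genes were lower). At an unadjusted p under 0.05 it gave 12 members, beside 1704 of 13223 genes tested. It gave 8 lower with DESeq2 and 1 lower with the replicate block (0.484% of all genes). Its median was -0.26 against 0.00, and 45 of 48 members were negative.

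**Figure D4:**
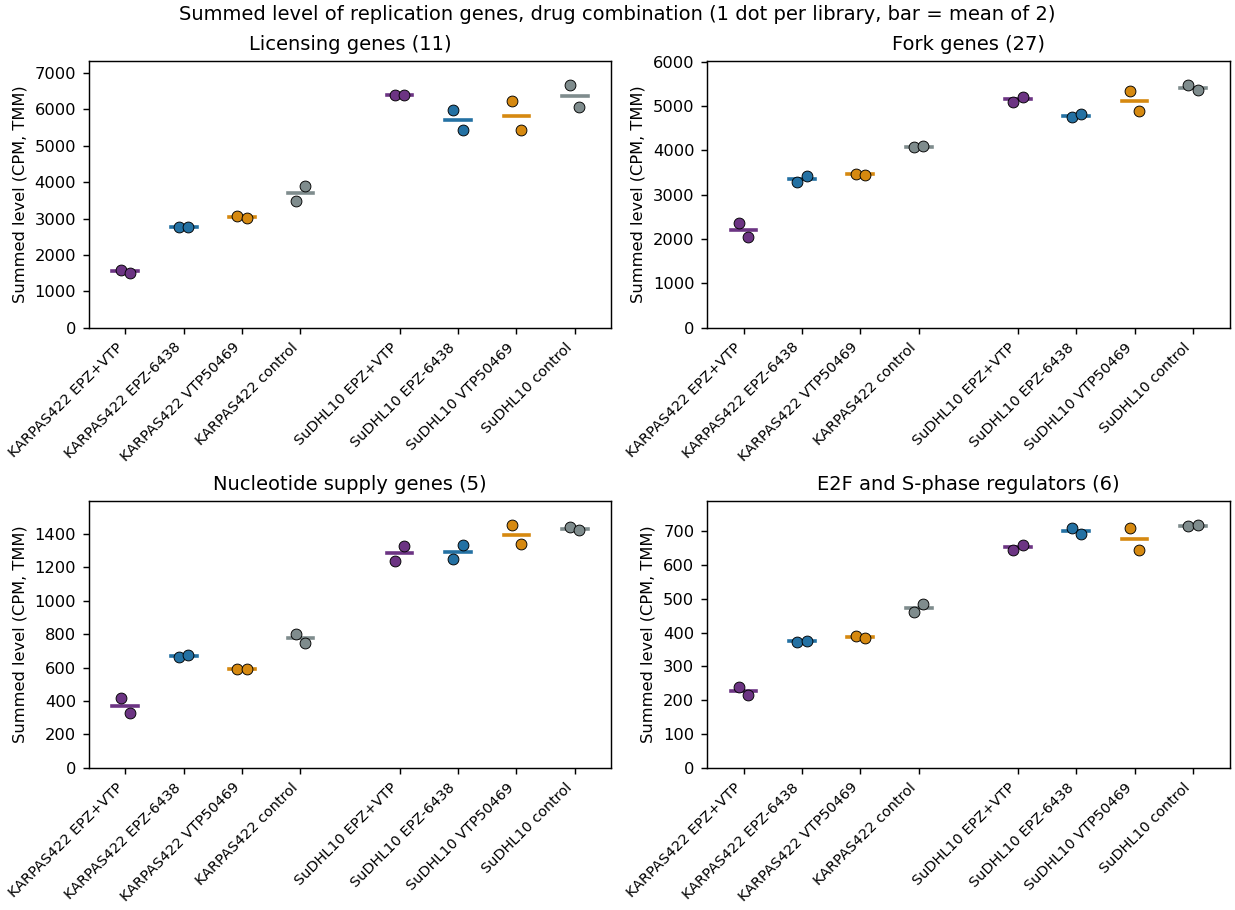
Summed level in CPM of the 4 roles in each library of the drug combination in KARPAS422 (left) and SuDHL10 (right), for both drugs, EPZ-6438, VTP50469 and control, with a bar at the mean of 2 libraries. In KARPAS422 both combination libraries lie below all others in every panel, and in SuDHL10 the groups lie close together.

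As sums over the 49 genes, KARPAS422 libraries held 51.07% and 45.38% of the control mean with both drugs, 78.34% and 80.08% with EPZ-6438 and 83.23% and 82.4% with VTP50469. With both drugs, licensing genes kept 43.12% and 40.66%, fork genes 57.84% and 50.28%, nucleotide supply genes 53.76% and 42.06%, and regulators 50.42% and 45.54%. Licensing again kept less than fork in each library. Median log2 fold changes with both drugs were -1.30 for licensing, -1.07 for helicase, -0.79 for polymerase, -0.97 for nucleotide supply and -1.09 for regulator genes. With EPZ-6438 alone, 7 of 11 licensing, 9 of 26 fork, 0 of 5 nucleotide supply and 3 of 6 regulator genes were lower, with medians of -0.46, -0.26, -0.24 and -0.34. POLD1, the catalytic subunit of polymerase delta, led these with -0.68 ± 0.13 (edgeR adjusted p = 0.0281), followed by CDT1 (-0.66 ± 0.14, edgeR adjusted p = 0.0369).

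CDC6 had the largest fall, with 48.9 and 37.5 CPM with both drugs, 89 and 91.8 CPM with EPZ-6438, 88.8 and 88.8 CPM with VTP50469 and 129 and 127 CPM in control cells. The combination libraries lay below all others, and the change with both was -1.52 ± 0.16 (SE, edgeR adjusted p = 0.00085). ORC1 had 28.2 and 28.2 CPM with both drugs, 53.8 and 50.8 CPM with EPZ-6438, 56.6 and 59.3 CPM with VTP50469 and 79.1 and 83.7 CPM in control cells, with changes of -1.49 ± 0.099 for both (edgeR adjusted p = 0.000255), -0.65 ± 0.097 for EPZ-6438 (edgeR adjusted p = 0.0148) and -0.42 ± 0.096 for VTP50469 (edgeR adjusted p = 0.106). MCM2 had 129 and 137 CPM with both drugs, 255 and 248 CPM with EPZ-6438, 318 and 305 CPM with VTP50469 and 337 and 420 CPM in control cells (-1.46 ± 0.11 with both). E2F1 had 74.9 and 77.9 CPM with both, 117 and 110 CPM with EPZ-6438, 156 and 155 CPM with VTP50469 and 156 and 195 CPM in control cells. Its changes were -1.16 ± 0.12, -0.64 ± 0.12 and -0.10 ± 0.12. It was thus a member in which the VTP50469 libraries reached into the range of the control.

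GMNN and CCNE2 were ordered the other way between the single drugs. GMNN had 48.3 and 33.8 CPM with both drugs, 87.1 and 85.6 CPM with EPZ-6438, 68 and 69.8 CPM with VTP50469 and 114 and 94.1 CPM in control cells. CCNE2 had 23.6 and 14.9 CPM with both, 39.6 and 36.9 CPM with EPZ-6438, 25.3 and 24.4 CPM with VTP50469 and 46 and 36.8 CPM in control cells, with changes of -0.14 ± 0.25 for EPZ-6438 and -0.67 ± 0.25 for VTP50469 (edgeR adjusted p = 0.863 and 0.308). Neither single drug passed the threshold for these genes. PCNA had 199 and 169 CPM with both, 340 and 362 CPM with EPZ-6438, 336 and 331 CPM with VTP50469 and 458 and 439 CPM in control cells (-1.25 ± 0.13 with both, edgeR adjusted p = 0.00076). The members not called with both drugs were RPA1 (0.01 ± 0.10, edgeR adjusted p = 0.966), ORC6 (-0.41 ± 0.19, edgeR adjusted p = 0.133) and the thinly counted RRM2 (-0.71 ± 0.44, edgeR adjusted p = 0.234). RRM1 had 150 and 111 CPM with both drugs and 309 and 288 CPM in control cells (-1.15 ± 0.17, edgeR adjusted p = 0.0031).

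Compared with each single drug, both drugs lowered 39 members relative to EPZ-6438 (10.9% of all genes were lower), with a median of -0.68, and 38 relative to VTP50469 (21.9% of all genes were lower), with a median of -0.74. GMNN and CDC6 fell by 1.01 each relative to EPZ-6438, and MCM2 by 1.26 ± 0.11, POLD1 by 1.1 and CDC45 by 1.08 relative to VTP50469. MCM4 fell by 1.03 ± 0.13 relative to EPZ-6438 and by 1.08 ± 0.13 relative to VTP50469 (edgeR adjusted p = 0.0101 and 0.00288). The change with both was lower than the sum of the single changes on the log2 scale for 46 of 48 members. The median departure was -0.45, against -0.03 for all genes, and scaling by library totals alone moved the median of all genes by 0.12. However, 0 members passed the adjusted threshold with edgeR (0% of all genes). At an unadjusted p under 0.05 there were 20 members, beside 769 of 13223 genes tested, and 8 were lower with DESeq2. MCM4 departed by -0.71 ± 0.18 (edgeR adjusted p = 0.718). These comparisons share libraries with each other.

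Counts of calls in this line moved widely with single libraries. The 45 lower with both drugs ran between 38 and 47 when 1 library was left out. The EPZ-6438 count was 10 without control replicate 2, 0 without VTP50469 replicate 1, 6 without VTP50469 replicate 2 and 0 without EPZ-6438 replicate 2. The shares of all genes lower in these 4 fits were 2.73%, 0.0191%, 1.86% and 0%. For both drugs relative to either single drug, calls were lost without some single libraries, among all genes as among the members. A fit of this kind leaves 1 library in a group, so its counts are not read closely. VTP50469 alone gave 8 lower without combination replicate 1 and 13 without combination replicate 2, beside 1.73% and 3.51% of all genes in those fits. The departure from the sum gave 45 lower without combination replicate 1, beside 32.7% of all genes, of which 0% were called with all libraries. The cause was not tested. Mitotic genes also fell with both drugs, 27 of 39 lower and 0 higher, and 28 of 31 other replication genes were lower. CDKN1A, which fell with MI-503 in this line, rose with both drugs by 1.62 ± 0.16.

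SuDHL10 control cells held more of the group than KARPAS422 control cells, with 37 members higher (30.6% of all genes) and a median log2 difference of 0.69. RFC3 alone was lower (-1.14 ± 0.15, edgeR adjusted p = 5.05e-05), beside 31.8% of all genes. The SuDHL10 controls belong to 24 h and the KARPAS422 controls to 48 h, so line and time cannot be told apart. Scaling by library totals alone moved the median of all genes by -0.18. GINS2 stood apart most, at 186 and 178 CPM in SuDHL10 and 47.2 and 46.1 CPM in KARPAS422 control cells (2.00 ± 0.15, edgeR adjusted p = 4.66e-07), followed by TK1 (1.69) and E2F2 (1.52 ± 0.14). In SuDHL10 the drug effects over 24 h had medians near 0. With both drugs 4 members were lower, CDC6, PRIM2, RRM1 and CCNE2 (7.93% of all genes were lower), with a median of -0.10. EPZ-6438 alone lowered 7, MCM4, ORC1, POLA1, POLA2, PCNA, RPA1 and RRM1 (5.39% of all genes), with a median of -0.15. VTP50469 alone gave 0 called by edgeR (0% of all genes) and 0 with DESeq2, with a median of -0.04. At an unadjusted p under 0.05 it gave 0 members, beside 724 of 11409 genes tested. With the replicate number as a block, 14 members were lower with both drugs (24.5% of all genes) and 22 with EPZ-6438 (20.1% of all genes).

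Per library, CCNE2 had 33.4 and 35.8 CPM with both drugs, 42.2 and 53 CPM with EPZ-6438, 47 and 46.9 CPM with VTP50469 and 44.3 and 55.5 CPM in control SuDHL10 cells, a change of -0.55 ± 0.13 with both (edgeR adjusted p = 0.0256). RRM1 had 406 and 446 CPM with both, 403 and 480 CPM with EPZ-6438, 525 and 495 CPM with VTP50469 and 511 and 546 CPM in control cells (-0.34 ± 0.092, edgeR adjusted p = 0.0414). MCM5, a licensing gene that did not pass, had 620 and 591 CPM with both and 638 and 497 CPM in control cells, a change of 0.06 ± 0.17. Of the 11 licensing genes, 7 had negative and 4 positive changes with both drugs, with a median of -0.08. Summed licensing genes were at 100.2% and 100.3% of the control mean with both drugs, 93.93% and 85.43% with EPZ-6438 and 97.82% and 85.27% with VTP50469. Relative to VTP50469, both drugs lowered PRIM2, RRM1 and CCNE2 (2.88% of all genes were lower). Relative to EPZ-6438 they lowered 0 (2.7% of all genes), and 1 with DESeq2. At an unadjusted p under 0.05 there was 1 member, beside 2215 of 11409 genes tested. The departure from the sum of the single changes was called for 0 (0.0526% of all genes) and for 0 with DESeq2. At an unadjusted p under 0.05 there were 2 members, beside 1049 of 11409 genes tested.

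Same-numbered SuDHL10 libraries deviated together. With the block, both drugs relative to VTP50469 gave 15 lower and 7 higher, beside 25.4% and 25.1% of all genes in the same fit. Relative to EPZ-6438 they gave 3 lower and 5 higher, beside 16.1% and 17.1% of all genes. The departure from the sum gave 1 lower and 9 higher, beside 10.7% and 11.6% of all genes. Without the block, calls with EPZ-6438, with both drugs and relative to VTP50469 were lost when some single libraries were left out. Calls with both drugs and relative to VTP50469 became more numerous without either EPZ-6438 library. The share of all genes called lower moved the same way in these fits. A fit of this kind leaves 1 library in a group, so its counts are not read as a result about the members. Whether the response of the group differed between SuDHL10 and KARPAS422 was not tested, since times differed.

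Of the 49 genes, ORC1 and RPA3 were also targeted in the study's pooled knockout screen of epigenetic genes, with 4 guides each in KARPAS422 and in K562, a chronic myeloid leukaemia line. There was 1 library per line and day, so no test applies. In KARPAS422 the ORC1 guides had 76, 945, 5746 and 79 counts on day 14, against 4963, 3917, 21684 and 3175 counts on day 0, a median log2 change of -4.3316 relative to the median of 48 control guides, which themselves ranged between -2.5821 and 2.0813 in KARPAS422 and between -6.9017 and 2.4012 in K562. In K562 the median change of ORC1 guides was 0.1025, with counts of 3918, 2535, 15627 and 2507 on day 14, against 3057, 2840, 24800 and 2816 on day 0. RPA3, the small subunit of RPA, had medians of -3.2359 in KARPAS422 and -0.6314 in K562. By median, ORC1 ranked 11 and RPA3 50 from the lowest of 565 genes in KARPAS422, and 485 and 91 in K562. Of all guides, 91.2% lay below the control median in KARPAS422 and 67.9% in K562, so the reference differs between the lines.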

How the data were processed

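RNA-seq of 32 libraries (2 per condition) was analysed from 2 tables of read counts per gene, which the authors deposited unnormalised. Per the submitters' processing notes, CASAVA 1.7, HISAT2 2.1.0, featureCounts 1.6.1, Picard 2.23.1 and hg38 were used, on rRNA-depleted RNA. The strand setting, the annotation and the treatment of multiply mapped reads are not stated in the material used here. Guide counts of the knockout screen, as deposited, were scaled to the median of the control guides, with a pseudocount of 1 and a minimum of 30 counts on day 0. Columns that matched no sample numbered 0.

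Genes were filtered by filterByExpr, scaled by TMM and tested by the two-sided quasi-likelihood test of edgeR 4.0.16 (R 4.3.3, limma 3.58.1), with a fit per line for drug effects, a fit over 16 libraries for differences in response and a fit of the DMSO or control libraries for levels without drug, with Benjamini-Hochberg adjustment over all genes tested and a call at an adjusted p under 0.1. DESeq2 1.42.0, other scalings, no filter, a stricter threshold, thinning, other fits and leaving out each library were tried as alternatives. The test was checked on simulated counts. Simulated 1.5-fold changes were recovered for 76.1% with MI-503 in KARPAS422 and 79.1% in Farage. The values were 67.2% with VTP50469 in SuDHL10 and 8.96% with both drugs in KARPAS422. Calls on unchanged genes numbered 32 of 209, 16 of 184, 16 of 186 and 12 of 110 in the same order. The 49 genes and all lists were chosen with earlier results of these data known. Genes were named by a rule: the 3 members with the largest called change in each direction of a comparison, called members against the majority where these numbered 5 or fewer, and a set of exemplars (MCM2, MCM5, CDC6, CDT1, ORC1, GMNN, CDC45, GINS2, MCM10, CLSPN, POLE2, POLA1, PCNA, RFC3, FEN1, RRM2, TYMS, TK1, DUT, E2F1, E2F2, E2F8, CCNE1, CCNE2 and DTL). ORC6, POLE, PRIM2, RPA1, RFC2 and RRM1, where they fall outside this rule, were named after their values were seen.

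In the combination experiment, deviations of same-numbered libraries from their group means correlated above 0.1 in each pair of groups. Correlations ran between 0.219 and 0.772 in SuDHL10 and between 0.266 and 0.795 in KARPAS422. The p-values, standard errors and main counts of that experiment nevertheless come from fits without this pairing. A fit with the replicate number as a block was run as an alternative, and its counts are given where they moved the result. Counting intervals were not used, since replicates give the spread.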

Additional observations from a re-analysis of the deposited data

Results flagged for a closer look

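Responses to MI-503 that differed between lines by an interaction term are listed here as values (edgeR, 16 libraries in 1 fit). All 49 members differed among the 4 lines, 38 between KARPAS422 and Farage, 41 between KARPAS422 and SUDHL5, 47 between DB and Farage and 36 between DB and SUDHL5. A few members were called in both of the lines compared, with opposite signs, and also by the interaction term. Others, such as GINS2 in KARPAS422 and Farage, had opposite signs without a call in both lines and are not listed. For KARPAS422 minus Farage these were PRIM1 (-0.82 ± 0.097, edgeR adjusted p = 1.61e-05), RFC5 (-0.51 ± 0.089, edgeR adjusted p = 0.000758) and E2F1 (-0.80 ± 0.08, edgeR adjusted p = 3.51e-06). For DB minus Farage they were PRIM1 (-0.56 ± 0.10, edgeR adjusted p = 0.000337), RFC5 (-0.51 ± 0.096, edgeR adjusted p = 0.000398) and E2F1 (-1.38 ± 0.081, edgeR adjusted p = 7.12e-10). RPA1 differed by -0.28 ± 0.065 for KARPAS422 minus SUDHL5 (edgeR adjusted p = 0.00397) and by -0.47 ± 0.067 for DB minus SUDHL5 (edgeR adjusted p = 3.03e-05). With 2 libraries per condition, single libraries were not tested as outliers.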

How the results depend on the processing

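Of 859 counts of members recomputed under the alternatives, 751 stayed within 1.5 times the value reported and 108 moved. Of 10674 values of single genes, 9913 kept direction and side of the threshold, 556 lost and 196 gained significance, and 9 changed sign. The cause was not tested for any of them. A fit with 1 library left out leaves 1 library in a group, and in the drug combination the share of all genes called moved with it as well. For the MI-503 experiment the share of all genes in the alternative fits is not given. Members lower with MI-503 in Farage numbered 11 with library totals, 11 with DESeq2, 11 at an adjusted p under 0.05, 9 with 16 libraries in 1 fit, and between 6 and 19 when 1 library was left out. DB minus SUDHL5 gave between 19 and 30 when 1 library was left out.

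In KARPAS422, EPZ-6438 gave 12 at an adjusted p under 0.05 and between 0 and 27 when 1 library was left out. VTP50469 gave 1 with RLE size factors, 7 with library totals, 1 without the filter, 8 with DESeq2, 1 with the replicate block and 7 with the 2 groups alone, and between 0 and 13 with 1 library left out. Both drugs relative to EPZ-6438 gave 24 with the 2 groups alone and between 0 and 46 with 1 library left out, relative to VTP50469 between 0 and 46, and the departure from the sum 8 with DESeq2 and between 0 and 45.

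In SuDHL10, EPZ-6438 gave 0 with library totals, 2 with DESeq2, 22 with the replicate block, 0 at an adjusted p under 0.05, 0 with the 2 groups alone, and between 0 and 7 with 1 library left out. Both drugs gave 1 with library totals, 14 with the block, 2 at an adjusted p under 0.05, and between 0 and 7. Relative to EPZ-6438 they gave 1 without the filter, 1 with DESeq2, 3 with the block, and between 0 and 3. Relative to VTP50469 they gave 0 with library totals, 7 without the filter, 15 with the block, 0 at an adjusted p under 0.05, 15 with the 2 groups alone, and between 0 and 11. The departure from the sum gave 1 with the block.

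With library totals alone, differences of DMSO levels changed sign for KARPAS422 minus Farage in MCM5 (0.16), CDT1 (0.11), ORC1 (0.065), POLA1 (0.16) and RRM2 (0.070), for KARPAS422 minus SUDHL5 in ORC1 (0.13), FEN1 (0.025) and DUT (0.12), and for DB minus Farage in MCM10 (0.11). In the MI-503 experiment the libraries shared only a number. The replicate block gave 46 lower in KARPAS422, 47 in DB, 46 in SUDHL5 and 21 in Farage, and a crossed pairing of SUDHL5, chosen after seeing the data, 47. DESeq2 was not run for the F tests over lines.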
